A study of Mus musculus with 20 samples.

Results

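The mitochondrial ribosomal protein genes were taken as every gene whose symbol starts with Mrpl or Mrps followed by a digit. The rule named 79 genes, of which 51 encode proteins of the large subunit, 26 encode proteins of the small subunit and 2 (Mrps36 and the pseudogene Mrps36-ps1) encode neither. The immunoprecipitation data held 38158 rows of annotated 3'UTRs, among them 136 rows of these 79 genes. The mRNA data held 23777 genes after RefSeq transcripts were summed by symbol, and 78 of the 79 genes had a row there. Older names were matched to current ones, so that Mrp63 was read as Mrpl57 and Ict1 as Mrpl58.

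The mitochondrial ribosome translates the few proteins that mitochondrial DNA encodes, all of them subunits of the oxidative phosphorylation complexes. Its RNA comes from the mitochondrial genome, whereas all of its proteins are encoded in the nucleus, translated in the cytoplasm and imported. One set of these proteins has counterparts in the bacterial ribosome and the other is found only in mitochondria. AGO2 is the protein of the RNA-induced silencing complex (RISC) that holds a miRNA and, through it, the mRNAs with matching 3'UTRs, and such mRNAs are destabilised or translated less.

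The study asked which transcripts occupy the RISC of hippocampal neurons in adult C57BL/6 mice and what changes when 1 miRNA family is blocked. For RNA immunoprecipitation (RIP), AAV5 vectors with the synapsin promoter, which is active in neurons, delivered GFP-AGO2 joined to a sponge for miR-124 (miR124sp), for miR-125 (miR125sp) or for miR-292 (miR292sp, the control, a miRNA of embryonic stem cells), and RNA bound by a GFP antibody was sequenced. Each of these 3 groups had 2 libraries, and 2 libraries of sham-injected mice were taken through the same antibody step. Each RIP library held pooled lysate of 2 hippocampi, and the spread between libraries is therefore not that between single mice. For mRNA sequencing, hippocampi of 3 mice with GFP-miR124sp and 3 with GFP-miR125sp were compared with 3 mice with GFP alone in each of the 2 experiments, 12 mice in all, with no AGO2 fusion in these vectors. The labels give the cells as hippocampal neurons, but the mRNA libraries were made from whole hippocampal tissue, in which transduced neurons are mixed with all other cells.

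RIP libraries held 2417942 to 5072501 counts and mRNA libraries 6950522 to 27833176. Gapdh and the 50 genes ranked on either side of it, which served as the reference scale for the enrichment values, took 0.697 to 0.745% of the counts in the miR292sp libraries, 1.43 to 1.45% in miR124sp, 1.21 to 1.29% in miR125sp and 1.92 to 2.01% in sham. Summed neuronal markers were at similar levels in all 8 RIP libraries (8456 to 9789 CPM, counts scaled to a fixed library total). On the reference scale, 10 of 13 neuronal markers tested were higher in miR292sp than in sham, with a median log2 fold change of 1.04. Of all 3'UTRs 59.4% were higher on this scale, with a median of 1.26, so the median of the neuronal markers lay below it. Summed astrocyte markers were lowest in miR292sp (15390 to 16150 CPM), followed by miR125sp (35160 to 37550 CPM), miR124sp (44160 to 44450 CPM) and sham (63200 to 63590 CPM). Tested singly on the reference scale, 4 of 10 astrocyte markers were higher in miR292sp than in sham and 2 were lower. Their median log2 fold change was 0.32, against 1.26 over all 3'UTRs. The sums are CPM without the reference scale, so they cannot be set directly against the single tests. Of the 15 neuronal markers, Syt1 and Map2 had no counts in any RIP library.

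At the mRNA level the members were moderately expressed, and expression was compared between members only per kb of transcript. Over the 70 members with 1 RefSeq transcript the median was 31.6 CPM per kb, with quartiles of 21.4 and 46.6. Mrps21, a small-subunit protein with a bacterial counterpart, was the highest at 108 ± 16.9 CPM per kb (SD, n = 12 mice), followed by Mrpl20 at 87.5 ± 15.5. Mrpl30, Mrpl12 (a protein of the stalk that recruits elongation factors), Mrps18a and Mrps12 came next, at 67.5 ± 10.4, 67.1 ± 7.19, 58.2 ± 5.69 and 56.9 ± 3.50 CPM per kb. The ranges over mice of neighbours in this order overlapped, with Mrps21 at 90.6 to 140 CPM per kb and Mrpl20 at 73.3 to 118. Within each mouse, however, Mrps21 was above Mrpl20. Without the GFP mice of the miR-124 experiment, Mrpl12 (64.3 CPM per kb) was above Mrpl30 (62.9) and Mrps12 (56.8) above Mrps18a (56.2), so the order of these neighbours is not fixed.

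The lowest members with 1 transcript were Mrpl17 (7.07 CPM per kb), Mrps25 (7.28) and Mrpl19 (8.98), whose transcripts are among the longest of the family. Lower values came from members with several RefSeq transcripts, Mrps23 at 0.0171, Mrps2 at 0.145 and Mrpl48 at 0.218 CPM per kb. Over the 12 mice, Mrps36 had 0 counts, Mrps23 had 6, Mrpl48 had 46, Mrps2 had 62 and Mrps10 had 67, and these 5 members did not pass the filter on low counts. All 5 belong to the 8 members with several RefSeq transcripts, among which the counting could split or drop reads, and their levels are therefore uncertain. The remaining 73 members were tested.

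In the RIP data the members made up 0.136 to 0.179% of the counts of a library. At least 10 counts in each of the 8 libraries were required, and 55 members passed while 24 did not. Of those 24, Mrpl24, Mrps12 and Mrps10 had no counts in any library, and each has several annotated 3'UTR rows. Over all genes, 26.1% of those with several 3'UTR rows had 0 counts, and 25.9% of those with 1 row. The other 21 of the 24 members had counts, the most over the 8 libraries being 194 for Mrpl15, 185 for Mrpl45 and 135 each for Mrpl39 and Mrps35. The 55 members had a median of 688 counts over the 8 libraries against 1174 for all 8203 3'UTRs that passed, so their single values carry more counting error. The methods describe no correction for molecules copied more than once, and counting error is therefore taken as a lower limit on the error.

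In the control state, transcripts of the mitochondrial ribosome were enriched in AGO2 binding by a lower median factor than all 3'UTRs measured, with a wide spread among them. Relative enrichment in AGO2 binding is the scaled count in a library divided by the mean of the sham libraries. Over the 55 members the mean relative enrichment in miR292sp ran from 0.656 to 11.3 with a median of 1.99, against a median of 2.39 over all 3'UTRs. It was below 1 in 6 members, between 1 and 2 in 22, between 2 and 4 in 19 and above 4 in 8. The share above 4 was 14.5% of the members against 27.2% of all 3'UTRs.

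With the quasi-likelihood test of edgeR and Benjamini-Hochberg adjustment over all 3'UTRs, 26 of the 55 members (47.3%) were higher in miR292sp than in sham and 0 were lower. Of all 3'UTRs, 59.4% were higher and 0.585% were lower. The median log2 fold change was 0.99 over the members and 1.26 over all 3'UTRs. Large-subunit genes were higher in 20 of 39 with a median of 1.17, and small-subunit genes in 5 of 15 with a median of 0.73. The members with a bacterial counterpart (15 of 34 higher, median 0.99) and those found only in mitochondria (10 of 20 higher, median 1.02) had similar medians. The pseudogene Mrps36-ps1 was the remaining member that was higher.

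**Figure D1:**
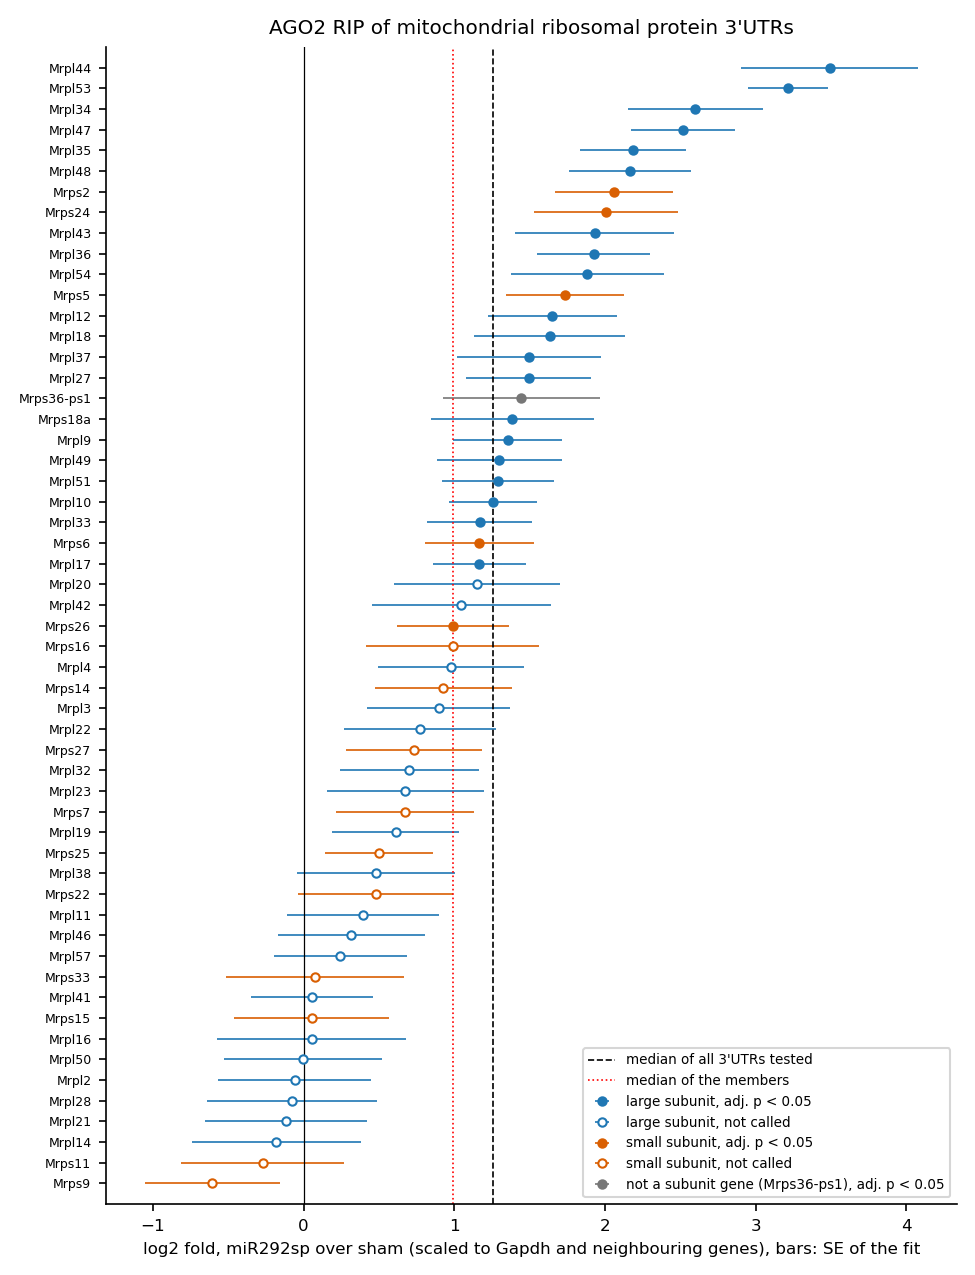
Log2 fold change between the miR292sp and sham libraries (x axis) for each of the 55 members, coloured by subunit, with the SE of the fit as bars and filled points for an adjusted p under 0.05. Mrpl44 and Mrpl53 stand at the top with 3.49 and 3.21, and the median of the members (red, 0.99) lies left of that of all 3'UTRs (dashed, 1.26).

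The gene with the highest enrichment was Mrpl44, a large-subunit protein with a ribonuclease III-like fold. In miR292sp it had 114 and 137 counts, in sham 17 and 15, which after scaling gave relative enrichments of 10.6 and 12.1. Both miR292sp libraries lay far above both sham libraries, with a log2 fold change of 3.49 (SE 0.59, edgeR adjusted p = 5.69e-05).

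Mrpl53, a large-subunit protein found only in mitochondria, followed with 894 and 1122 counts in miR292sp and 154 and 157 in sham. Its enrichments were 8.45 and 10.1 and its log2 fold change was 3.21 (SE 0.27, edgeR adjusted p = 1.37e-08). With 3620 counts over the 8 libraries it had the most of the 55 members. Its 3'UTR of 266 bases (chr6:83059668-83059933, NCBIM37) lies wholly within exons of Ccdc142 on the same strand, so reads of the 2 genes cannot be told apart there. The separate 3'UTR row of Ccdc142 had 6 to 33 counts per library.

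Mrpl34, a large-subunit protein with a bacterial counterpart, had 206 and 218 counts in miR292sp against 54 and 47 in sham (log2 fold change 2.60, SE 0.45). Mrpl47, which sits near the exit of the peptide tunnel, had 277 and 324 against 74 and 76 (2.52, SE 0.35). In both, the miR292sp libraries stood clear of the sham libraries. The next 4 were Mrpl35 with a log2 fold change of 2.18, Mrpl48 with 2.17, Mrps2 with 2.06 and Mrps24 with 2.01. Mrpl47 overlaps exons of Actl6a on the opposite strand and Mrpl48 those of D630004N19Rik on the same strand. In all, the 3'UTRs of 9 of the 55 members overlapped exons of another gene.

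At the other end, Mrps9, a small-subunit protein with a bacterial counterpart, had 62 and 59 counts in miR292sp and 110 and 150 in sham. Its scaled values in miR292sp were below those in sham, with a log2 fold change of -0.60 that did not pass the test (SE 0.45, edgeR adjusted p = 0.26). Mrps11 was at -0.27, Mrpl14 at -0.18, Mrpl21 at -0.12, Mrpl28 at -0.08, Mrpl2 at -0.06, Mrpl50 at -0.00 and Mrpl16 at 0.05, none of which passed. For Mrpl50, found only in mitochondria, the sham libraries held 190 and 47 counts and the miR292sp libraries 98 and 55, so the groups overlapped and 1 sham library set its value. Without sham library 7, the one with 190 counts, its log2 fold change was 1.51.

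The members have short 3'UTRs, with a median of 302 bases (quartiles 182 and 1084) against 1312 for all 3'UTRs. Longer 3'UTRs had higher enrichment, with a rank correlation of 0.204 over all 8203 3'UTRs and of 0.346 over the 55 members. Points in both come from the same 4 libraries. Among 3'UTRs of at most 150 bases the median log2 fold change was 0.58 for 8 members and 0.59 for all. Between 150 and 300 bases it was 0.98 for 19 members and 0.66 for all, and between 300 and 1000 bases 1.31 for 14 members and 1.19 for all. Above 1000 bases it was 1.23 for 14 members against 1.45. The members called higher numbered 0, 8, 9 and 9 in these classes, beside 24.3, 33.7, 54.1 and 68.7% of all 3'UTRs. Within classes of similar length the median of the members was thus above that of all 3'UTRs in the middle classes and below it in the longest. In the shortest class the medians were near each other, although 0 of 8 members were called beside 24.3% of all. With 8 to 19 members a class, these differences were not tested.

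**Figure D2:**
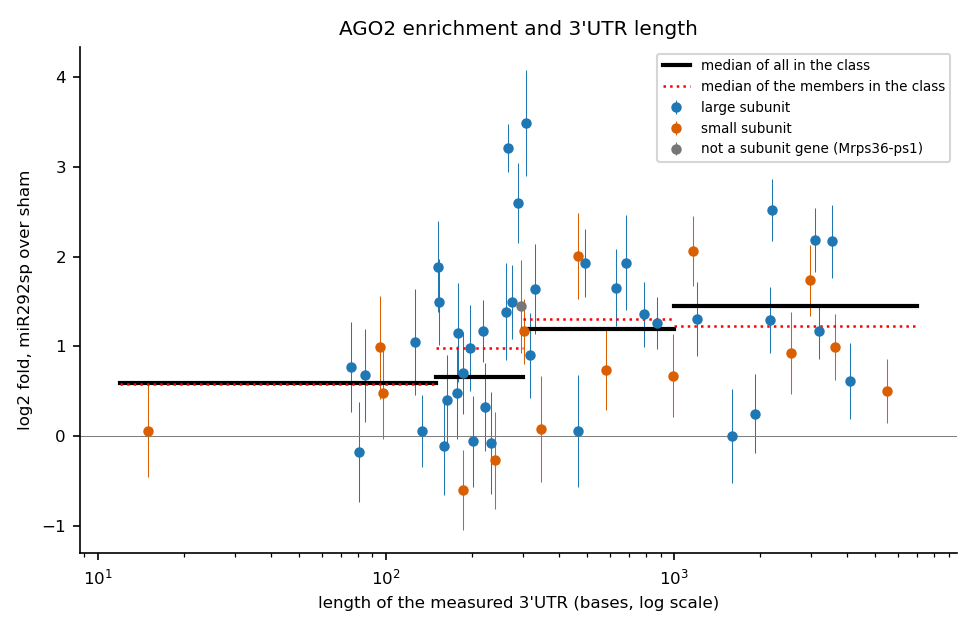
Log2 fold change between miR292sp and sham (y axis, bars are the SE of the fit) against 3'UTR length in bases (log x axis) for the 55 members, with the median of all 3'UTRs (black) and of the members (red) in 4 classes of length. The black medians climb from 0.59 to 1.45, and the red ones lie above them in the middle classes and below in the longest.

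The absolute level of enrichment depended on the scaling. With the trimmed mean of M values (TMM), which sets the typical 3'UTR to no change, 4 members were higher (Mrpl44, Mrpl53 with a log2 fold change of 1.86, Mrpl34 with 1.24 and Mrpl47 with 1.16) and 11 were lower than in sham. On that scale 21.6% of all 3'UTRs were higher and 19.1% lower. The members' median was -0.35 against -0.11 over all 3'UTRs. With the reference scale, 17 of 56 members were higher without sham library 8, beside 3707 of all 8413 3'UTRs, and 33 of 55 without sham library 7, beside 5459 of 8409.

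AGO2 binding of the members was then compared between the sponge libraries, which also differed as a whole. On the reference scale, the median relative enrichment of all 3'UTRs was 2.39 in miR292sp, 1.29 in miR124sp and 1.47 in miR125sp. Above 4 were 27.2, 2.8 and 6.18% of all 3'UTRs and 8, 0 and 1 of the 55 members, in this order. What set these levels apart was not tested. For the tests between sponges, counts were scaled with TMM, since the share of the reference genes itself differed between the groups. The miR-124 and miR-125 comparisons use the same miR292sp libraries, and values are therefore given side by side only. Against miR292sp, 1 member was lower and 1 was higher in miR124sp of 55, beside 3.46% lower and 5.1% higher of all 3'UTRs. In miR125sp 1 member was lower and 0 were higher, beside 0.232% and 1.18% of all. Median log2 fold changes of the members were 0.12 in miR124sp and 0.16 in miR125sp, and those of all 3'UTRs 0.04 and 0.03.

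Mrpl53 was the member that fell in both. Its TMM-scaled level was 185 and 231 CPM in miR292sp, 93.5 and 97.2 in miR124sp, 94.3 and 112 in miR125sp, and 53.2 and 61.8 in sham. The sponge libraries lay between the control and the sham libraries without overlap with either. The log2 fold change was -1.13 in miR124sp (SE 0.25, edgeR adjusted p = 0.0122) and -1.01 in miR125sp (SE 0.24, edgeR adjusted p = 0.0474). No match to either miRNA seed was found in its 3'UTR.

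Mrps9 rose in miR124sp. Its level was 12.8 and 12.1 CPM in miR292sp, 36.3 and 35.7 in miR124sp, 35.0 and 19.0 in miR125sp, and 38.0 and 59.0 in sham. Every library outside miR292sp was above the miR292sp libraries. The log2 fold change was 1.53 in miR124sp (SE 0.43, edgeR adjusted p = 0.0364) and 1.11 in miR125sp (SE 0.43, edgeR adjusted p = 0.202). Mrpl2, a large-subunit protein near the peptidyl transferase centre, was next by p-value, with 5.59 and 4.94 CPM in miR292sp, 12.8 and 16.7 in miR124sp, 11.8 and 10.3 in miR125sp, and 12.4 and 15.7 in sham. Its log2 fold changes of 1.48 in miR124sp (edgeR adjusted p = 0.0677) and 1.07 in miR125sp (edgeR adjusted p = 0.276) did not pass. For both genes the miR292sp libraries were the lowest, and for Mrps9 1 miR125sp library lay nearer to them than to sham.

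**Figure D3:**
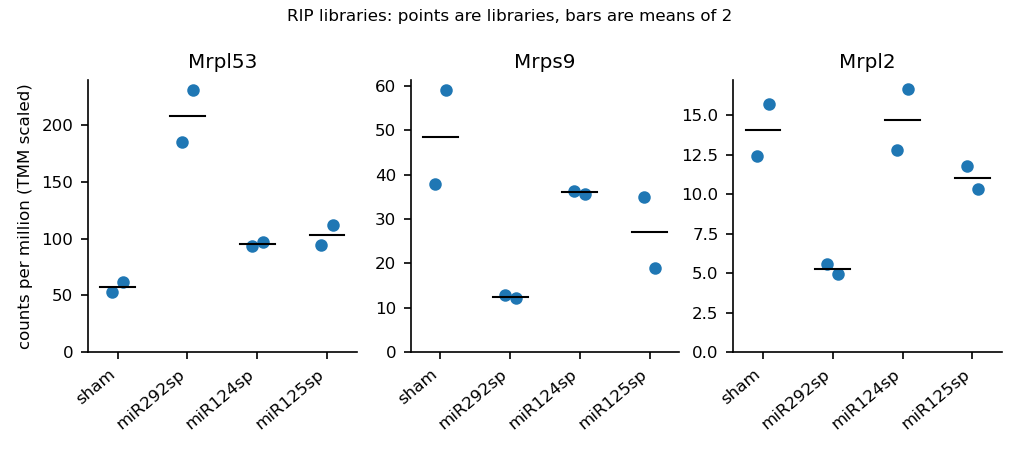
TMM-scaled level in CPM of Mrpl53, Mrps9 and Mrpl2 in each of the 8 RIP libraries (points), grouped by sponge, with the mean of 2 libraries as a bar. Mrpl53 is highest in miR292sp (185 and 231 CPM), whereas Mrps9 and Mrpl2 are lowest there.

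None of these calls held when any 1 library of its comparison was left out (0 members called in each case), and calls over all 3'UTRs fell as well. The log2 fold change of Mrpl53 was then between -1.28 and -0.96 in miR124sp and between -1.17 and -0.85 in miR125sp, and that of Mrps9 between 1.48 and 1.56 in miR124sp, close to the values with all libraries. Summed astrocyte markers also differed between these groups, as given above. Of the 10 astrocyte markers tested, 4 were higher in miR124sp and 3 in miR125sp than in miR292sp. Of 12 oligodendrocyte and myelin markers, 4 were higher and 1 was lower in miR124sp, and 1 was higher in miR125sp. Of 13 neuronal markers, 2 were higher in miR124sp and 1 in miR125sp. Whether these differences have a part in the change of Mrpl53 or Mrps9 was not tested. With the reference scale, on which all 3'UTRs had a median of -0.97 in miR124sp, 21 members were lower in miR124sp beside 50% of all 3'UTRs, and 9 were lower in miR125sp beside 38.2%.

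Between miR124sp and miR125sp no member differed by edgeR's test, and 0 members were below an unadjusted p of 0.05 or called by DESeq2. Of all 3'UTRs 0.0122%, a single one, was called. The members with the smallest p-values were Mrpl32 (0.78), Mrpl28 (0.88) and Mrpl44 (-0.70 on the log2 scale, SE 0.52), with edgeR adjusted p-values of 0.921 to 0.932. For Mrpl44 the TMM-scaled level was 8.04 and 27.2 CPM in miR124sp and 24.2 and 32.8 in miR125sp, so the groups overlapped.

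The 3'UTRs were next read for matches to the miRNA seeds, bases 2 to 8 of the mature miRNA. The miR-125 family shares 1 seed, shown in capitals in the mature sequences from RefSeq.

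mmu-miR-125b-5p: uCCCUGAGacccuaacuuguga
mmu-miR-125a-5p: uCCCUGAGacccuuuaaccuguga

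The letters searched on the transcribed strand were CTCAGGG for miR-125 and GTGCCTT for miR-124. Each was present in the 3'UTR of 4 of the 55 members (7.27%), against 16.5% and 16.8% of the 7452 3'UTRs with sequence. By length, the miR-124 match was in 1 of 27 members and 3.35% of all 3'UTRs of at most 300 bases, in 0 of 14 members and 8.58% of all from 300 to 1000 bases, and in 3 of 14 members and 22.7% of all above 1000 bases. The miR-125 match was in 0 of 27 members and 2.23% of all, 1 of 14 and 8.63%, and 3 of 14 and 22.4% in these classes. The sites of 30 bases are shown because they are the full seed matches found in the measured 3'UTRs of members that passed the RIP filter. Other 3'UTR rows, coding sequence and 5'UTRs were not searched. Capitals mark the match, and positions are in NCBIM37. The matches to miR-124 were as follows.

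Mrpl17, chr7:112956370-112956399, minus strand: ggtcatcagacttagtagcaaGTGCCTTct
Mrps25, chr6:92123953-92123982, minus strand: aatccttctatctgcaatataGTGCCTTtc
Mrpl35, chr6:71763605-71763634, minus strand: gatctctgttacatggcctcaGTGCCTTgg
Mrps18a, chr17:46265682-46265711, plus strand: cagcacagagaactaacttctGTGCCTTgg

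The matches to miR-125 were as follows.

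Mrps25, chr6:92123996-92124025, minus strand: cctggcccctggtgcaggggtCTCAGGGag
Mrps26, chr2:130390959-130390988, plus strand: tgttctggcaccacagacaaaCTCAGGGca
Mrpl19, chr6:81910587-81910616, minus strand: agtgaagtctgctaagcagacCTCAGGGta
Mrpl16, chr19:11849264-11849293, plus strand: taattaaagtttgaatgtaacCTCAGGGta

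With TMM scaling, none of the 4 members with a miR-124 match was lower in miR124sp than in miR292sp by the test. Their log2 fold changes were 0.15 (SE 0.30) for Mrpl17, 0.47 (SE 0.34) for Mrps25, -0.13 (SE 0.34) for Mrpl35 and -0.48 (SE 0.52) for Mrps18a. The result depended on the scale. With the reference scale Mrpl35 (-1.15), Mrpl17 (-0.86) and Mrps18a (-1.46) were called lower and Mrps25 was not, beside 50% of all 3'UTRs that were lower. No member with a miR-125 match was lower in miR125sp on either scale. Their TMM log2 fold changes were 0.30 (SE 0.34) for Mrps25, 0.26 (SE 0.35) for Mrps26, 0.42 (SE 0.41) for Mrpl19 and 0.80 (SE 0.60) for Mrpl16. Mrps25, the small-subunit protein with the longest 3'UTR of the family (5497 bases), held a match to each seed 36 bases apart, and its exons overlap Nr2c2 on the opposite strand. Its counts were 222 and 229 in miR292sp, 165 and 235 in miR124sp, and 225 and 156 in miR125sp, so the groups overlapped.

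The mRNA libraries were then used to see how levels of the members changed in whole hippocampus with each sponge. In bulk tissue, fewer cells of a type and less RNA per cell cannot be told apart. With miR124sp, members of both subunits were lower than in the GFP mice of the same experiment. Summed over the members, the level was 3178, 2964 and 3018 CPM in the GFP mice (3054 ± 111, SD, n = 3) and 2493, 2437 and 2592 CPM in the miR124sp mice (2507 ± 78.8, SD, n = 3). Every miR124sp mouse was below every GFP mouse.

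By edgeR's quasi-likelihood test, 43 of the 73 members were lower and 0 were higher, beside 10.7% lower and 12.6% higher of all genes tested. The median log2 fold change was -0.29 over the members and -0.01 over all genes. Large-subunit genes were lower in 29 of 50, small-subunit genes in 14 of 23, genes with a bacterial counterpart in 28 of 44 and genes found only in mitochondria in 15 of 29. In 54 of the 73 members (74.0%) every miR124sp mouse was below every GFP mouse, against 21.1% of all genes.

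The smallest p-value was that of Mrpl41, a large-subunit protein found only in mitochondria, with 77.5, 69.9 and 69.4 CPM in the GFP mice and 49.0, 46.7 and 51.2 in the miR124sp mice. The groups were far apart, and the log2 fold change was -0.55 (SE 0.08, edgeR adjusted p = 0.00393). Mrpl50 had 76.8, 75.2 and 75.4 CPM in the GFP mice and 53.6, 57.1 and 53.7 in miR124sp, a log2 fold change of -0.46 (SE 0.06). Mrpl33, a small protein of the large subunit with a bacterial counterpart, had the largest fall of those named, with 35.4, 38.3 and 31.5 CPM in the GFP mice and 21.3, 21.6 and 25.1 in miR124sp (-0.62, SE 0.10). In each of these genes the GFP and miR124sp mice did not overlap.

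The others of the 12 with the smallest p-values were Mrpl53 (-0.61), Mrpl32 (-0.58), whose maturation in the mitochondrion precedes ribosome assembly, Mrpl20 (-0.51), Mrpl57 (-0.48), Mrpl11 (-0.46, a protein of the stalk base), Mrps14 (-0.43), Mrpl13 (-0.43), Mrps21 (-0.43) and Mrpl28 (-0.41). Their edgeR adjusted p-values were between 0.00393 and 0.00553. The falls were therefore modest and of similar size.

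**Figure D4:**
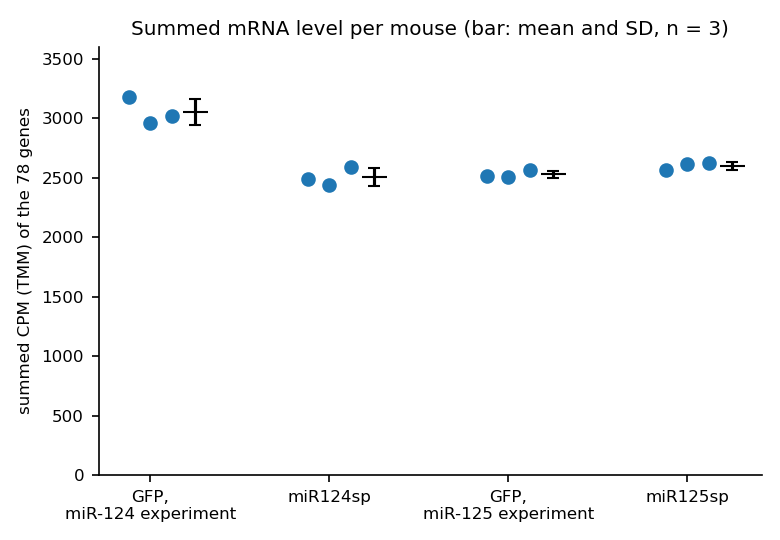
Summed level of the members in CPM for each of the 12 mice, with the mean of each group of 3 and its SD as bars. The GFP mice of the miR-124 experiment lie at 2964 to 3178 CPM, and the other 9 mice at 2437 to 2621 CPM.

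The group that stood apart was the GFP group of the miR-124 experiment. The GFP mice of the miR-125 experiment had 2517, 2509 and 2566 CPM (2530 ± 30.8, SD, n = 3) and the miR125sp mice 2563, 2617 and 2621 (2600 ± 32.4, SD, n = 3), both near the miR124sp mice. With the GFP mice of the miR-125 experiment as control, a comparison chosen after seeing the data, 0 of the 73 members were lower or higher in miR124sp by edgeR (4 at an unadjusted p under 0.05), beside 1.21% of all genes that were lower. The median over the members was then -0.02. Mrpl41, for example, had 55.9, 46.4 and 49.9 CPM in those GFP mice, overlapping the miR124sp mice.

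Transcript length differed along with this. The members' transcripts have a median of 1043 bases against 2748 for all genes tested. Over 592 genes outside the family with transcripts of at most 800 bases, the median log2 deviation from the gene's mean over the 12 mice was 0.338, 0.324 and 0.228 in the GFP mice of the miR-124 experiment and between -0.209 and -0.022 in the other 9. Among transcripts of at most 800 bases, the median log2 fold change between miR124sp and GFP was -0.43 for 22 members and -0.42 for all genes. It was -0.29 for 21 members and -0.23 for all between 800 and 1200 bases, and -0.16 for 20 members and -0.11 for all between 1200 and 2000 bases. Longer members were fewer. It was -0.46 for 6 members and -0.01 for all from 2000 to 3000 bases, and -0.19 for 4 members and 0.10 for all above. The rank correlation of the change with length was 0.41 over the 73 members and 0.384 over all genes, all from the same 6 mice.

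**Figure D5:**
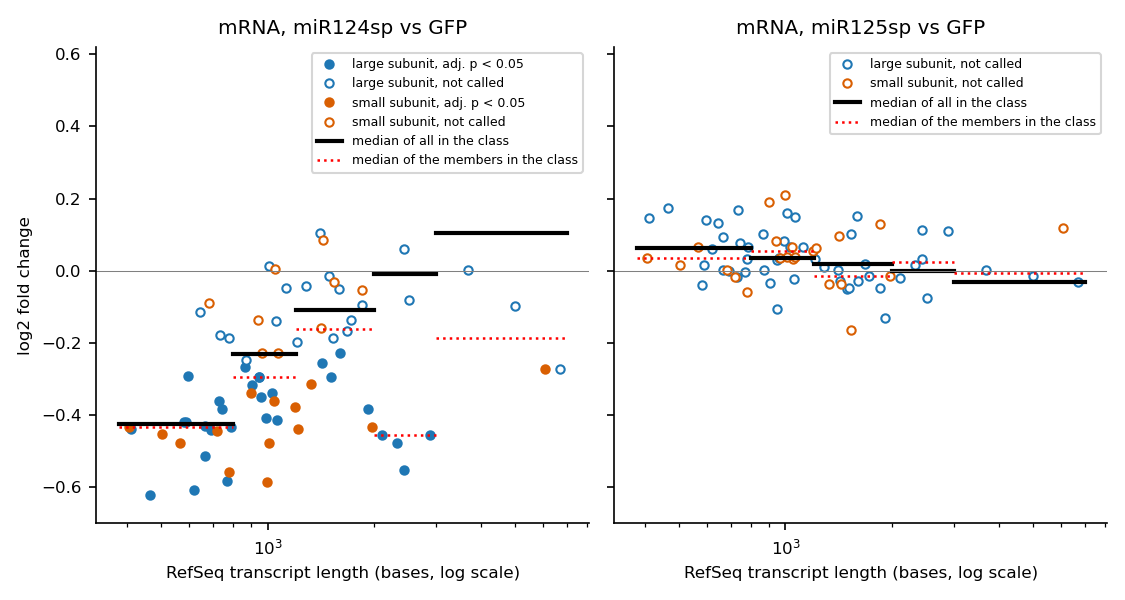
Log2 fold change against GFP mice (y axis) and transcript length in bases (log x axis) of the 73 members with miR124sp (left) and miR125sp (right), filled where called, with medians of all genes (black) and of the members (red) in 5 classes of length. On the left the black and red medians start near -0.42 and -0.43 and part above 2000 bases, and on the right both stay near 0.

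An offset that removes the dependence on length in each library was added after seeing the data. With it, 8 members were lower and 1 was higher, Mrps12 (log2 fold change 0.27). Of all 12967 genes, 6.31% were lower and 1096 were higher, and the median over the members was -0.06. The 8 were Mrpl41, Mrpl11, Mrpl50, Mrpl57, Mrps25, Mrps14, Mrpl17 and Mrpl15, whose transcripts span 1916 to 6712 bases. With the mark that some file headers carry as a covariate, 15 members were lower beside 4.8% of all genes, while the median of the members was -0.30. With 1 mouse left out, 18 members were called without GFP mouse 15, 19 without miR124sp mouse 2 and 27 without miR124sp mouse 14, while their medians stayed at -0.26, -0.29 and -0.31. Over all genes the number lower fell alike, from 1388 to 527, 519 and 675. What set the GFP mice of the miR-124 experiment apart was not tested.

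Markers of other cells moved in the same comparison. Of the astrocyte markers 6 of 11 tested were lower in miR124sp, with a summed level of 7926 to 9686 CPM in the GFP mice of the miR-124 experiment, 6527 to 6779 in miR124sp, 6112 to 6687 in the other GFP mice and 6061 to 6141 in miR125sp, and no astrocyte marker was at 0. Of the oligodendrocyte and myelin markers 9 of 12 were higher (931 to 1018 CPM in GFP, 1262 to 1622 in miR124sp). Of the microglial markers 5 of 8 were lower (606 to 686 CPM in GFP, 540 to 557 in miR124sp), with Itgam and Ctss at 0. Of the neuronal markers 5 of 13 were higher and 1 lower (6298 to 7086 CPM in GFP, 7283 to 7563 in miR124sp), with Dlg4 at 0. Endothelial and mural markers numbered 1 lower of 6. Their part in the change of the members was not tested.

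With miR125sp, 0 of the 73 members differed from the GFP mice by edgeR, with 3 at an unadjusted p under 0.05 and 0 by DESeq2, beside 0.206% of all genes. The median log2 fold change was 0.03 over the members and -0.01 over all genes. The member with the smallest p-value was Mrps34, a small-subunit protein found only in mitochondria, with 36.0, 36.3 and 39.7 CPM in the GFP mice and 42.2, 44.1 and 43.1 in miR125sp. The mice did not overlap, yet the log2 fold change of 0.19 (SE 0.06, edgeR adjusted p = 0.242) did not pass. Mrpl58, a release factor built into the large subunit, was at 0.17 (edgeR adjusted p = 0.322) and Mrpl28 at 0.15 (edgeR adjusted p = 0.287).

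The effect of miR124sp was compared with that of miR125sp in 1 model over the 12 mice. It was lower in 34 of the 73 members and higher in 0, beside 7.06% and 7.4% of all genes, with a median difference of -0.34 over the members. The largest of those named were Mrpl33 (-0.81, SE 0.13) and Mrpl53 (-0.68, SE 0.13). With the length offset 7 members were lower, beside 2.53% of all genes, with a median difference of -0.07. With the header mark 9 were lower, beside 359 of all 13264 genes, with a median of -0.35 over the members. The high GFP mice of the miR-124 experiment enter this comparison too.

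Other genes of mitochondrial translation were taken from lists of 66 genes outside the naming rule. In RIP, 39 were measured, of which 9 were higher in miR292sp than in sham and 1 was lower, with a median log2 fold change of 0.55 and a median 3'UTR of 923 bases. Over all 3'UTRs 59.4% were higher, with a median of 1.26, and the lists thus lay below that level. Those with the smallest p-values included Oxa1l, which inserts new proteins into the inner membrane (2.50), and Tfam, which packages mitochondrial DNA and acts in its transcription (2.20). The methionyl-tRNA synthetase Mars2 (2.51) and the rRNA methyltransferase Mrm1 (2.97) were also among them. The ribosome recycling factor Gfm2 was the one that was lower (-1.81). In the sponges, Lars2, a leucyl-tRNA synthetase, was higher in miR124sp (1.18) and in miR125sp (1.27) than in miR292sp. Ptcd3, a small-subunit protein named outside the rule, was higher in miR124sp (1.63), and Gfm2 in miR125sp (2.27). No gene of the lists was lower in either. Of the 39 measured, 2 were thus higher in miR124sp, beside 5.1% higher and 3.46% lower of all 3'UTRs. In miR125sp 2 of the 39 were higher, beside 1.18% higher and 0.232% lower of all.

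In mRNA, 8 of 59 genes of these lists were lower in miR124sp than in GFP mice and 0 were higher, beside 10.7% lower and 12.6% higher of all genes, with a median of -0.09 and a median transcript of 2448 bases. Among the 5 with the smallest p-values were Slirp (-0.56) and Hsd17b10 (-0.46), which act on mitochondrial RNA, Chchd1 (-0.56), a small-subunit protein, Lars2 (-0.55) and Fastkd2 (-0.39), which takes part in ribosome assembly. In miR125sp 0 of 58 differed by edgeR.

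The promoters of the members were also read for motifs of factors known for nuclear genes of mitochondria. RefSeq promoters (GRCm38.p6, 250 bases before to 50 after the start) were matched for 69 members. On either strand, the letters CGCATGCG of the NRF1 core were in 7 members (10.1%), against 3.58% of 10101 other genes tested in mRNA. CCGGAAGT, bound by ETS factors such as GABPA, was in 12 (17.4%) against 7.82%, and AAGATGGCG, bound by YY1, in 8 (11.6%) against 3.1%. TATAAA was in 5 (7.25%) against 8.83%. Of all 32851 promoters these motifs were in 1.87, 3.89, 1.4 and 13.6%, in this order. At least 1 of the first 3 motifs was in 26 members and more than 1 of them in 1. For each of the first 3, the window of 30 bases shown is from the member with the smallest p in the miR124sp comparison among those holding the motif, in capitals.

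Mrpl32, NRF1 core, chr13:14613105-14613134, minus strand: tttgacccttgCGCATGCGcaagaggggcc
Mrpl33, ETS motif, chr5:31613937-31613966, plus strand: ccgcgcatgccCCGGAAGTagtcgttgagc
Mrpl42, YY1 motif, chr10:95501903-95501932, minus strand: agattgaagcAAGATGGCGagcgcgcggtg

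The matches lie 86 bases before the start in Mrpl32, 3 before it in Mrpl33 and at base 28 after it in Mrpl42. The files hold no measure of factor binding, and a match describes letters in the window only.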

How the data were processed

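AGO2 RIP libraries and polyA mRNA libraries of mouse hippocampus were analysed from the deposited counts, whole numbers of reads that the authors assigned to annotated 3'UTRs (RIP) or RefSeq transcripts (mRNA). The labels name STAR, edgeR and mm10 and the methods mm9, and 82.5% of RIP rows had the length of the NCBIM37 3'UTR less the stop codon. Which program counted the reads is not stated in these sources. Rows without a name held 0.386% of RIP and 0.967% of mRNA counts. Groups came from the labels. Every 3'UTR row with at least 10 counts in each of the 8 libraries was fitted, so a gene could hold several rows. Each member was represented by its 3'UTR with most counts. RefSeq transcripts were summed by symbol and filtered with filterByExpr. The members and lists were chosen with earlier results of these data known.

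Fits were made with edgeR 4.0.16 (quasi-likelihood) in R 4.3.3 with limma 3.58.1, and calls were an adjusted p (Benjamini-Hochberg over all features tested) under 0.05. RIP used 1 fit over 8 libraries, scaled to Gapdh and the 50 genes on either side for enrichment over sham (as the methods describe) and by TMM between sponges. Each mRNA experiment was fitted on its 6 mice by TMM, and the effects of both sponges in 1 fit over 12 mice. Alternatives were DESeq2 1.42.0, other scalings and filters, rows summed or split, a header mark as a covariate and each library left out. A length offset (lowess, span 0.3) and exchanged control mice were added after seeing the data. Statistics were tested on simulated data. Overlaps with exons were found with bedtools 2.31.1, tables with Python 3.11.15, numpy 2.4.6 and pandas 2.3.3, figures with matplotlib 3.10.9. Levels are CPM with TMM-scaled library sizes (unscaled for marker sums in RIP), per kb of RefSeq transcript where genes are compared.

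Named with values were the 8 highest and 8 lowest members in miR292sp against sham, the members called in each other comparison (at most 12, or the 3 with the smallest p where fewer than 3 passed), the 6 highest and 3 lowest per kb, members with a seed match, the 3 with most counts outside the filter, and at most 5 listed pathway genes per comparison. Other genes were named after their values were seen (the 8 and 1 members called with the length offset, the 3 lowest members with 1 transcript, overlapping neighbours, marker genes at 0). With 2 RIP libraries a group, the spread is that of pooled lysates.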

Additional observations from a re-analysis of the deposited data

Results flagged for a closer look

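The change with miR124sp differed from that with miR125sp in 34 of the 73 members by the test of the difference itself (edgeR quasi-likelihood, interaction over 12 mice, Benjamini-Hochberg over all genes), all lower, beside 7.06% lower and 7.4% higher of all genes. The 12 with the smallest p-values, given as the log2 change with miR124sp minus that with miR125sp, were Mrpl28 at -0.58, Mrpl11 at -0.58, Mrpl33 at -0.81, Mrpl42 at -0.54, Mrpl41 at -0.60, Mrpl57 at -0.51, Mrps34 at -0.55, Mrpl50 at -0.45, Mrpl52 at -0.60, Mrpl53 at -0.68, Mrpl13 at -0.51 and Mrpl20 at -0.53. Beside these values stands the summed level of the members, 2964 to 3178 CPM in the GFP mice of the miR-124 experiment and 2437 to 2621 CPM in the other 9 mice.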

How the results depend on the processing

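In miR292sp against sham, 26 members were called, and 17 to 33 with 1 library left out (17 without sham library 8). With TMM the balance reversed, to 15 called of which 11 were lower. The median of the members minus that of all 3'UTRs (-0.26) was -0.12 with at least 1 count per library and -0.34 to -0.12 with 1 library left out. The 2 calls in miR124sp against miR292sp became 1 with at least 1 count, 21 with the reference-gene scale and 0 to 0 with 1 library left out. The 1 call in miR125sp became 0, 9 and 0 to 0. In miR124sp against GFP mice, the header mark leaves the comparison to miR124sp mouse 14, and the median of the members was then -0.30. The 43 calls became 9 with the length offset, 0 with the other GFP mice, 0 with those and the offset, and 18 to 46 with 1 mouse left out. Over all genes, 519 to 2015 were lower with 1 mouse left out. The 34 calls between the effects of both sponges became 9 with the header mark (median difference of the members -0.35, against -0.34) and 7 with the offset (-0.07). With 1 mouse left out they became 24 to 39, while 575 to 1305 of all genes were lower. The offset and the exchanged GFP mice were chosen after seeing the data, and the cause was not tested. Reversed in sign were Mrpl50 in RIP (1.51 without sham library 7, against -1.08 without sham library 8), Mrpl52 between the effects with the offset (0.047), Mrps21 in miR124sp with the offset (0.089) or with the other GFP mice (0.0123), and, with the other GFP mice without and with the offset, Mrpl33 (0.17, 0.10), Mrpl28 (0.13, 0.075), Mrpl13 (0.13, 0.067) and Mrpl11 (0.0115, 0.0124). No paired analysis was possible because the groups compared share fewer than 2 replicate numbers. Of the RIP members, those with few counts had standard errors near 0.5 on the log2 scale with 2 libraries a group, which limits what could be called.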
